A study of Mus musculus with 26 samples.

Results

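Wdfy1 (ENSMUSG00000073643) was followed through sorted bone marrow monocytes, small peritoneal macrophages (SPMs) and MHCII negative lung macrophages of WT mice and of mice without the atypical chemokine receptor ACKR2. It is 1 gene of 54375 listed for monocytes, 54863 for SPMs and 57186 for lung macrophages. The gene was chosen because its read counts were higher in ACKR2-/- monocytes and lung macrophages and not in ACKR2-/- SPMs, so the genotype values of Wdfy1 below are a description of what chose it and carry no test. Its 53 neighbours, genes whose start lies within 2 Mb of the start of Wdfy1 on chromosome 1, and lists of genes that act around the WDFY1 protein were set beside it.

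The study compared naive female WT and ACKR2-/- mice to ask whether monocytes and macrophages differ in transcription without ACKR2. There were 4 samples per genotype of monocytes and of SPMs and 5 per genotype of lung macrophages, 26 in all, and each monocyte and SPM sample held cells of 5 mice, while how many mice made up a lung sample is not stated in the sources used here. WT C57BL/6J mice were bought from a commercial breeder and ACKR2-/- mice came from a colony kept at the university, so that genotype and colony of origin cannot be told apart in any comparison. Mice were 8 to 10 weeks old unless stated otherwise. Cells were sorted by flow cytometry with no added stimulus, the lung cells after enzymatic digestion of the tissue, and polyadenylated RNA was amplified from these small cell numbers before sequencing. The labels do not say that the samples of a group came from separate mice, so p-values measure the spread between these samples, which may be partly technical.

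WDFY1 is a protein of WD repeats with a FYVE domain, the zinc-binding fold that holds proteins to phosphatidylinositol 3-phosphate (PI3P) on early endosomes. In Toll-like receptor (TLR) signalling it is known as an adaptor that helps to bring TRIF, the product of Ticam1, to TLR3 and TLR4, from where kinases switch on interferon and inflammatory genes. Macrophages and monocytes use this route to answer double-stranded RNA and bacterial lipopolysaccharide, and the mice here were given neither.

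Wdfy1 lies on the minus strand of chromosome 1 at chr1:79702262-79776143 in the genome build GRCm38, a span of 73882 bp. GENCODE M21 lists 14 transcripts of the gene, 9 of them protein coding, and 7 begin at position 79761769. Its upstream end overlaps the opposite-strand gene Mrpl44 by 126 bp, and the unverified locus Gm10555 lies on the opposite strand over 1791 bp of Wdfy1. Of 5669 distinct stretches of 50 bases in Wdfy1 transcripts, 94 (1.66%) also occur in transcripts of other genes, 77 of these in Mrpl44 on the opposite strand. Reads from most of the gene can therefore be placed on Wdfy1 and on no other gene of the annotation.

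The sequence below was taken from the reference to show how far Wdfy1 and Wdfy2, its closest relative by name and domain order, can be told apart by reads. Each line gives 60 coding bases of the FYVE domain, read across the junction of exons 9 and 10, with capitals for codons 310 to 315, which encode the conserved basic and histidine-rich core that contacts PI3P. The Wdfy1 stretch spans chr1:79707550-79709119 on the minus strand and the Wdfy2 stretch spans chr14:62951990-62953044 on the plus strand, introns included.
Wdfy1: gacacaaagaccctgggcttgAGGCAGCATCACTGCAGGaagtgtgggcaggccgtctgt
Wdfy2: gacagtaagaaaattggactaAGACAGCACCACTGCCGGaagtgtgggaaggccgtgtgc
Here 45 of 60 bases are identical, and 15 of the 18 bases of the core. Over the 400 aligned codons the encoded residues are 62.2% identical and the bases 64.8%, and the longest run of identical coding bases is 20. No stretch of 50 bases is shared between transcripts of both genes.

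Wdfy1 carries a copy of part of itself. Exons 4, 5 and 6 of its longest transcript, of 55, 151 and 113 bp and all coding, each occur with identical sequence at a second place in the gene. These exons make up 319 of the 4551 bases of that transcript (7.01%). Exon 4 is shown as the shortest of them, and it lies at chr1:79722214-79722268 and again at chr1:79729656-79729710.
Wdfy1 exon 4: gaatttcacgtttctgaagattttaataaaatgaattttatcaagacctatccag
A read that lies wholly inside these exons matches 2 places of the same gene. How such reads were counted is not stated in the sources used here, and their part in the level of Wdfy1 was not tested.

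Total counts per sample were 15450670 to 19218213 for monocytes, 12781144 to 35400034 for SPMs and 19950019 to 29770252 for lung macrophages. Wdfy1 received 149 to 1388, 329 to 876 and 167 to 1136 of these, well above the 3 counts taken as the limit of detection, which equal at most 0.264 CPM (counts scaled to a common library size) in any sample. Markers of the labelled cells were found: Ly6c2, a surface antigen of classical monocytes, was at 3271 to 6461 CPM in monocytes, the MHCII gene H2-Ab1 at 24425 to 37813 CPM in SPMs, and the macrophage antigen Adgre1 (F4/80) at 280 to 653 CPM in lung macrophages. Lung libraries also held 181 to 10145 CPM of the epithelial surfactant gene Sftpc. Their epithelial markers summed to 232 to 16681 CPM, beside 2310 to 10944 CPM for macrophage markers. B cell markers summed to 602 to 3882 CPM, endothelial markers to 107 to 555 CPM and fibroblast markers to 54.7 to 862 CPM in these libraries. Ackr2 itself had 0 counts in all ACKR2-/- SPMs against 5 to 9 counts in WT SPMs and 0 to 2 counts in any monocyte sample, a level too low to check the monocyte labels. In the lung it was at 22.1, 17.7, 7.75 and 14.6 CPM in WT replicates 1 to 4 and at 0.282 to 1.64 CPM in ACKR2-/- samples. The library labelled WT replicate 5 had 0 counts. Fibroblast markers in WT lung replicates 1 to 5 summed to 862, 711, 383, 611 and 79.2 CPM. Replicate 5 also had the lowest epithelial sum of the WT lung samples, at 370 CPM. The part of such cells in the lung level of Ackr2 was not tested. WT lung replicate 3 stood apart with 21242 CPM of H2-Ab1 where the median of the WT lung samples was 1031 CPM. WT SPM replicate 1 had 1815 CPM of Ccr2 where the median of the WT SPM samples was 731 CPM. Its dendritic cell markers summed to 151 CPM, against 782 to 1226 CPM in WT SPM replicates 2 to 4. It also stood apart in the relatives of Wdfy1 described below.

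In bone marrow monocytes Wdfy1 was low in WT and several times higher in ACKR2-/- samples. WT replicates 1 to 4 had 9.70, 12.9, 12.6 and 9.45 CPM (mean 11.2 ± 1.82 SD, n = 4). ACKR2-/- replicates 1 to 4 had 74.7, 66.1, 58.5 and 55.3 CPM (mean 63.7 ± 8.63 SD, n = 4). The groups did not overlap, and 42.4 CPM lay between the highest WT and the lowest ACKR2-/- sample; groups did not overlap in this direction for 4.94% of the 13246 genes tested, a share from which nothing is read since the gene was chosen on this contrast. The ratio of the means was 5.71, and edgeR fitted a log2 difference of 2.51 (SE 0.15). A larger log2 difference was fitted for 83 genes, 0.627% of those tested. In bulk RNA of sorted cells, more cells of a type that expresses the gene and more RNA per cell cannot be told apart. The 7 monocyte markers summed to 7692 to 8425 CPM in WT and 4628 to 8820.5 CPM in ACKR2-/- monocytes (1 of 7 at higher levels). The macrophage markers summed to 857 to 1199 and 496 to 1539 CPM (0 of 7 tested at higher levels). EdgeR called 0 markers of these lists, beside 1.27% of all genes, and their part in the level of Wdfy1 was not tested.

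In SPMs the genotypes overlapped. WT replicates had 30.5, 20.8, 28.9 and 23.1 CPM (mean 25.9 ± 4.63 SD, n = 4) and ACKR2-/- replicates had 22.6, 20.7, 22.6 and 20.8 CPM (mean 21.7 ± 1.09 SD, n = 4). The ACKR2-/- samples lay within or just below the range of the WT samples, among which replicates 1 and 3 were higher. In the same samples 7 small peritoneal macrophage markers summed to 95872 to 117209 CPM in WT and 47329 to 89597 CPM in ACKR2-/- SPMs, with 0 of 7 at higher levels in ACKR2-/- samples. The 6 markers of large peritoneal macrophages, the resident macrophages of this cavity, summed to 318 to 1116 and 949 to 1952 CPM, with 6 of 6 at higher levels, although their defining factor Gata6 was at only 0.929 to 3.72 CPM. No marker of either list was called by edgeR (0 of 13, beside 0.0462% of all genes), and their part in the level of Wdfy1 was not tested. The ratio of the means was 0.838 and the fitted log2 difference was -0.25 (SE 0.19), or -0.16 (SE 0.14) without WT replicate 1. A larger log2 difference was fitted for 68.2% of the 12997 genes tested.

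In MHCII negative lung macrophages Wdfy1 was again higher in ACKR2-/- samples, by less than in monocytes. WT replicates had 7.89, 15.1, 9.41, 13.2 and 14.5 CPM (mean 12.01 ± 3.19 SD, n = 5). ACKR2-/- replicates had 37.3, 29.3, 26.8, 30.2 and 26.1 CPM (mean 29.9 ± 4.46 SD, n = 5). The groups did not overlap, with 10.9 CPM between them, which was so in this direction for 0.22% of the 16824 genes tested, and again nothing is read from that share. The ratio of the means was 2.49 and the fitted log2 difference 1.32 (SE 0.22), with 120 genes (0.713%) above it. The library labelled WT replicate 5, with 0 counts of Ackr2, had 14.5 CPM of Wdfy1, inside the range of the other WT samples and below every ACKR2-/- sample. Without it and WT replicate 3 the fitted log2 difference was 1.36 (SE 0.25). The 6 interstitial macrophage markers summed to 736 to 8416 CPM in WT and 283 to 891 CPM in ACKR2-/- samples (0 of 6 at higher levels). The 8 macrophage markers summed to 3508 to 10944 and 2310 to 5087 CPM (0 of 8 at higher levels). WT replicate 3 held the highest sum of both lists. EdgeR called 0 markers of these lists, beside 0% of all genes, and their part in the level of Wdfy1 was not tested.

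**Figure D1:**
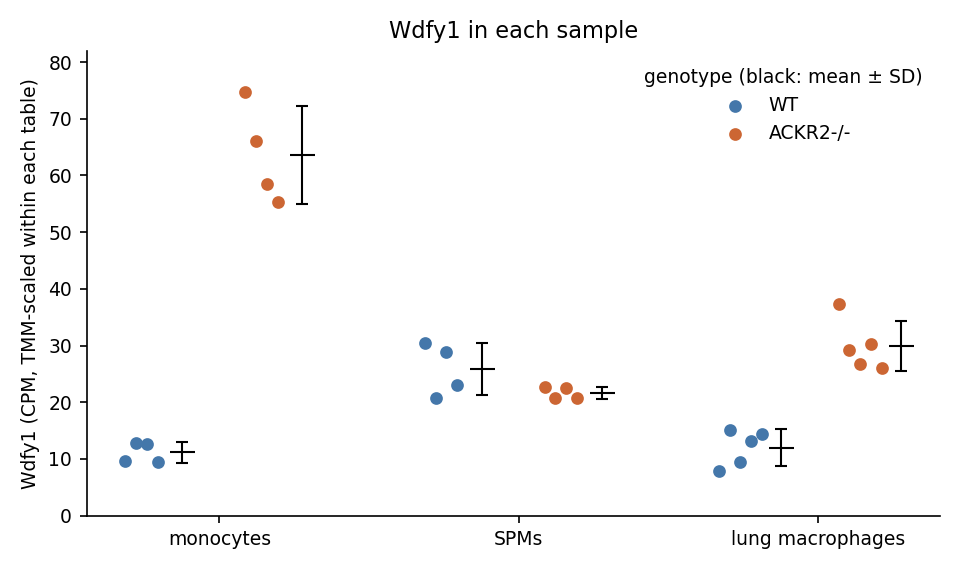
Wdfy1 in each of the 26 samples, in CPM scaled by TMM within the table of each cell type, by cell type and genotype; points are samples, black bars the mean ± SD. ACKR2-/- monocytes lie at 55.3 to 74.7 CPM and ACKR2-/- lung macrophages at 26.1 to 37.3 CPM, above all WT samples of their cell type, while both genotypes of SPMs lie between 20.7 and 30.5 CPM.

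Fitted together in all 26 samples over 17792 genes, the log2 genotype difference of Wdfy1 in monocytes exceeded that in SPMs by 2.67 (SE 0.28) and that in lung macrophages by 1.15 (SE 0.27), and the difference in lung macrophages exceeded that in SPMs by 1.52 (SE 0.27). These values restate the pattern by which the gene was chosen and were not tested. No sample decided them: without each sample in turn they ran from 2.60 to 2.74, from 1.05 to 1.26 and from 1.41 to 1.62.

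Among WT samples, SPMs had the highest level of Wdfy1. These WT libraries are also 1 side of the genotype differences by which the gene was chosen, so their order is a description and carries no test. Scaled together across the 13 WT samples, Wdfy1 was at 44.3 ± 6.08 CPM (SD, n = 4) in SPMs, at 9.04 ± 2.01 CPM (n = 5) in lung macrophages and at 8.57 ± 1.41 CPM (n = 4) in monocytes. On this scale the WT SPM samples ran from 36.7 to 49.8 CPM and overlapped neither of the others, and the WT monocytes (7.22 to 9.81 CPM) lay inside the range of the WT lung macrophages (6.47 to 11.1 CPM). The edgeR fit over 16328 genes put WT SPMs above WT monocytes by 2.37 on the log2 scale (SE 0.23) and WT lung macrophages at -2.29 against SPMs (SE 0.21). WT lung macrophages and WT monocytes were neighbours in the order whose ranges overlapped, at a log2 difference of 0.08 (SE 0.21). Large shares of all genes were called in these contrasts, 41.1% between SPMs and monocytes, 60.8% between lung macrophages and SPMs and 61% between lung macrophages and monocytes. Cell type, tissue, sort and counting run cannot be told apart in them. Scaling within each table put SPMs first as well but narrowed the gap, at 25.9 CPM against 12.01 and 11.2 CPM.

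Per kilobase of its 6.488 kb of exons, Wdfy1 stood at 1.72 CPM per kb in WT monocytes, at percentile 33.0 of the tested genes that have a length, and at 9.81 CPM per kb in ACKR2-/- monocytes, at percentile 67.8. In SPMs it stood at 3.98 CPM per kb in WT and 3.34 CPM per kb in ACKR2-/- samples, at percentiles 66.5 and 63.5. In lung macrophages it stood at percentile 37.6 in WT (1.85 CPM per kb) and 58.0 in ACKR2-/- samples (4.61 CPM per kb). Among the genes of its family name, Wdfy1 had less CPM per kb in WT monocytes than Wdfy2 (2.58) and Wdfy4 (2.05) and more than Wdfy3 (1.00), and in ACKR2-/- monocytes it exceeded all 3, which were at 3.004, 2.69 and 1.14 CPM per kb.

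The other genes named for WD repeats and a FYVE domain did not share these values. Wdfy2 encodes an endosomal protein of the same domain order, Wdfy3 the large autophagy scaffold known as ALFY, and Wdfy4 a BEACH domain protein known for cross-presentation of antigen in dendritic cells. None of them was called between the genotypes in any cell type, where a call is an adjusted p under 0.05 in edgeR and an absolute log2 difference over 0.5. In all 13246 genes tested in monocytes this rule called 1.27%, in SPMs 0.0462% and in lung macrophages 0%. Beside that 0, 499 genes (2.97%) had an unadjusted p under 0.05 in lung macrophages and DESeq2 called 21.

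Wdfy4 came nearest in monocytes. Its WT samples had 21.1, 20.6, 23.4 and 21.5 CPM and its ACKR2-/- samples 29.1, 27.9, 30.7 and 26.03 CPM, which did not overlap. The log2 difference was 0.39 (SE 0.11, edgeR adjusted p = 0.110), under the 0.5 needed for a call. In SPMs and lung macrophages the genotypes overlapped for all 3 relatives. Wdfy2 was at 23.7 ± 4.01 and 27.6 ± 1.84 CPM in WT and ACKR2-/- monocytes and Wdfy3 at 15.4 ± 2.07 and 17.4 ± 2.29 CPM (SD, n = 4). In WT SPMs, replicate 1 held 17.6 CPM of Wdfy2, 23.7 CPM of Wdfy3 and 39.7 CPM of Wdfy4, where the other 3 WT samples had at most 6.24, 5.99 and 11.4 CPM. Wdfy1 in the same sample, at 30.5 CPM, was close to replicate 3 at 28.9 CPM. Between WT cell types none of the 3 passed the edgeR test.

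Wdfy1 was then set in its place on the chromosome. Of its 53 neighbours, 17 are protein coding. Reads were few: 27 neighbours had 0 counts in every monocyte sample, 25 in SPMs and 17 in lung macrophages, and 11, 8 and 16 had enough reads to be tested. In monocytes 1 of 11 was called, in SPMs 0 of 8 and in lung macrophages 0 of 16, against the 1.27%, 0.0462% and 0% of all genes given above. DESeq2 called 1, 0 and 0, where it called 3.31%, 0.153% and 0.112% of all genes. An unadjusted edgeR p under 0.05 was found for 3, 0 and 0 of them, and for 17%, 5.46% and 2.97% of all genes. The median log2 difference of the tested neighbours was -0.11 in monocytes, -0.25 in SPMs and -0.13 in lung macrophages, where the median of all tested genes was 0.00, -0.05 and -0.04. Tested protein-coding neighbours lay between -0.32 and 0.37 in monocytes, the cell type in which Wdfy1 stood at 2.51.

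The nearest neighbour by its start is Gm10555, 60.5 kb above the start coordinate of Wdfy1 and inside the gene, with at most 0.342 CPM in any monocyte sample and too few reads for a test in any cell type. The nearest tested gene is Mrpl44, which encodes a protein of the large mitochondrial ribosomal subunit and begins 73.8 kb above that coordinate, within the upstream end of Wdfy1. In monocytes Mrpl44 was at 73.3, 93.3, 65.7 and 91.2 CPM in WT and at 75.9, 86.2, 67.9 and 65.8 CPM in ACKR2-/- samples, with a log2 difference of -0.13 (SE 0.14). In SPMs the log2 difference was 0.05 (SE 0.22) and in lung macrophages 0.07 (SE 0.21). The genotypes overlapped in all 3 cell types, and Mrpl44 was not called in any. Among WT samples Mrpl44 differed between cell types in another order than Wdfy1. It was lower in lung macrophages than in monocytes by the edgeR test (log2 difference -2.74, SE 0.24, adjusted p = 2.1e-07) and lower than in SPMs (-2.37, SE 0.24, adjusted p = 9.4e-07), and between SPMs and monocytes it was at -0.38 (SE 0.24, adjusted p = 0.246).

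Serpine2, a secreted protease inhibitor 91.9 kb above the start of Wdfy1, was at 30.8 ± 6.73 CPM in WT and 24.7 ± 13.5 CPM in ACKR2-/- monocytes (SD, n = 4) and at 66.6 ± 44.5 and 56.4 ± 45.0 CPM in lung macrophages (n = 5), and was too low for a test in SPMs. Fam124b, of no function that is firmly known, was tested in lung macrophages, at a log2 difference of -0.50 (SE 1.01). On the other side the nearest tested protein-coding genes were 885.5 kb and more away. Kcne4, a regulatory subunit of potassium channels, had 0 counts in monocytes and SPMs and a log2 difference of -0.72 (SE 0.79) in lung macrophages. Utp14b, which shares its place with the fatty acid activating enzyme Acsl3, was at -0.20 (SE 0.47), -0.95 (SE 0.48) and -0.96 (SE 0.81) in monocytes, SPMs and lung macrophages, and Acsl3 at -0.07 (SE 0.20), -0.42 (SE 0.34) and -0.28 (SE 0.25). None was called.

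The neighbour that was called is A630081D01Rik, a locus with unverified biotype that lies 1045 kb from Wdfy1, at chr1:80747222-80749054, wholly inside the gene Dock10 and on its strand. In monocytes it had 3.26, 2.18, 3.73 and 3.24 CPM in WT and 14.7, 5.75, 5.79 and 15.4 CPM in ACKR2-/- samples, which did not overlap. The log2 difference was 1.74 (SE 0.35, edgeR adjusted p = 0.0387, DESeq2 adjusted p = 0.00015). The edgeR call was lost without any 1 of WT replicates 1, 2, 3 and 4 and of ACKR2-/- replicates 1 and 4. It had 0 to 0.288 CPM in SPMs and 0.283 to 6.02 CPM in lung macrophages, where the genotypes overlapped. Dock10, the gene that contains it, was at 90.1 ± 15.1 CPM in WT and 116 ± 12.4 CPM in ACKR2-/- monocytes, at a log2 difference of 0.37 (SE 0.14, edgeR adjusted p = 0.212). The unverified loci Gm37645 and Gm38062 also lie inside Dock10 on its strand. In monocytes Gm37645 was at a log2 difference of 1.13 (SE 0.64, edgeR adjusted p = 0.384) and Gm38062 at 0.92 (SE 0.40, edgeR adjusted p = 0.270). The genotypes overlapped for both, and neither was called. The 3 neighbours with an unadjusted edgeR p under 0.05 in monocytes were A630081D01Rik, Gm38062 and Dock10; Gm37645 and Gm38062 are named after their values were seen. All these loci lie within the span of Dock10, so the share of reads that belongs to each is uncertain.

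**Figure D2:**
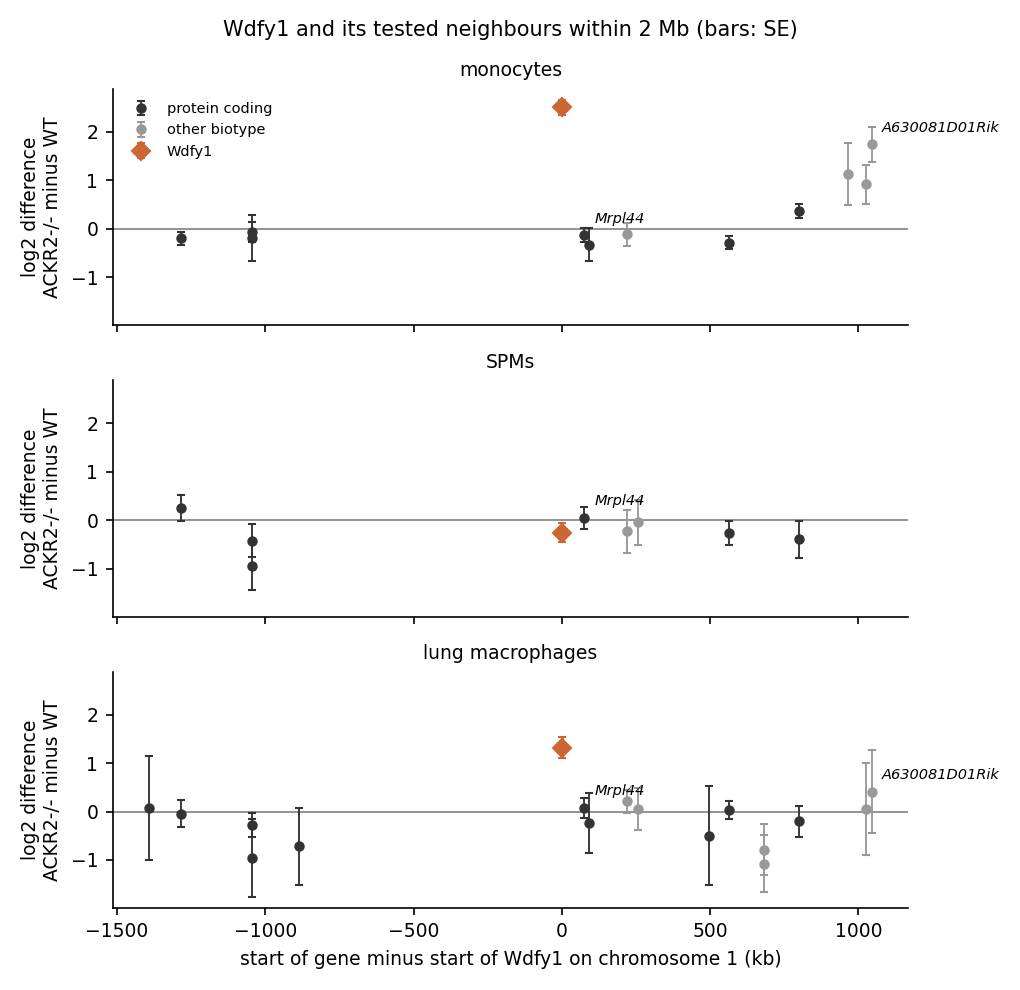
Log2 difference between ACKR2-/- and WT samples (points, bars ± SE) of Wdfy1 (diamond) and its tested neighbours against the distance of their starts from the start of Wdfy1 in kb, in monocytes, SPMs and lung macrophages. Wdfy1 stands at 2.51 and 1.32 in monocytes and lung macrophages, Mrpl44 beside it lies near 0 in all 3 cell types, and A630081D01Rik is the neighbour called, at 1.74 in monocytes.

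Genes of the early endosome were taken next, since WDFY1 works on its membrane. The list holds 46 genes for FYVE proteins, the kinase complex and phosphatases of PI3P, Rab5 GTPases, and sorting nexins with the retromer coat. In monocytes 0 of 45 tested were called, in SPMs 0 of 45 and in lung macrophages 0 of 46, beside the background shares of 1.27%, 0.0462% and 0%. DESeq2 called 0 in each, and 10, 1 and 2 had an unadjusted edgeR p under 0.05, beside 17%, 5.46% and 2.97% of all genes. The median log2 difference was -0.11, -0.17 and -0.04, and no member reached 1 in either direction. Eea1, the FYVE protein that tethers early endosomes, was at 20.4 ± 0.427 CPM in WT and 22.3 ± 1.26 CPM in ACKR2-/- monocytes (SD, n = 4) and had log2 differences of -0.40 (SE 0.31) in SPMs and -0.19 (SE 0.20) in lung macrophages. Pik3c3, the kinase that makes PI3P, was at -0.16 (SE 0.12), -0.17 (SE 0.22) and 0.22 (SE 0.18) in monocytes, SPMs and lung macrophages. The most abundant member was Snx3, a sorting nexin that binds PI3P, at 405 CPM in WT and 385 CPM in ACKR2-/- monocytes on average. Hgs, the FYVE protein that feeds ubiquitinated cargo to the endosomal sorting complex, was at 34.2 to 61.5 CPM in lung macrophages but at 0 CPM in all SPM samples and 0 to 0.0622 CPM in monocytes. The tables were counted separately, so this gap in Hgs cannot be told apart from a difference in counting.

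The second list holds 30 genes of the TRIF route, receptors first, then adaptors and kinases. Of these 28, 29 and 29 were tested in monocytes, SPMs and lung macrophages and 0 were called in each by edgeR and by DESeq2, where edgeR called 1.27%, 0.0462% and 0% of all genes. Unadjusted edgeR p-values under 0.05 were found for 7, 1 and 0 of them and for 17%, 5.46% and 2.97% of all genes. All 7 in monocytes were at lower levels in ACKR2-/- samples, and 7 of the 28 had groups that did not overlap in this direction, which was so for 5.25% of all genes. Tlr3, the receptor for double-stranded RNA, had a mean of 0.438 CPM in WT monocytes, too low for a test, and 1.03 and 2.36 CPM in WT SPMs and WT lung macrophages. Tlr4, the lipopolysaccharide receptor, had 14.5, 12.6, 9.57 and 13.1 CPM in WT monocytes and 11.6, 7.23, 7.95 and 8.82 CPM in ACKR2-/- monocytes, at a log2 difference of -0.48 (SE 0.19, edgeR adjusted p = 0.232). Ticam1, which encodes TRIF, had 10.7, 7.59, 8.35 and 7.83 CPM in WT and 4.14, 5.24, 7.16 and 7.49 CPM in ACKR2-/- monocytes, at -0.52 (SE 0.22, edgeR adjusted p = 0.263). In SPMs and lung macrophages Ticam1 was at -0.43 (SE 0.35) and -0.40 (SE 0.30). Unc93b1, the carrier of TLR3 to endosomes, and Cd14, the co-receptor of TLR4, were the most abundant members and were not called in any cell type.

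Of 12 genes known to follow TRIF signalling, 9, 10 and 12 were tested. Ccl5, a chemokine made by macrophages and also by T and NK cells, was called in monocytes, as 1 of 9 tested beside 1.27% of all genes. It had 2.80, 1.80, 0.946 and 1.57 CPM in WT and 9.52, 9.34, 16.0 and 17.95 CPM in ACKR2-/- monocytes, at a log2 difference of 2.90 (SE 0.33, edgeR adjusted p = 0.00102). T cell markers, given below, were higher in the same 4 samples, and their part in Ccl5 was not tested. The study reports lower Ccl5 transcription in ACKR2-/- monocytes, which is the opposite direction to these counts, and the cause of the disagreement was not tested. The other tested targets were not called, with a list median of -0.33 in monocytes, 0.78 in SPMs and -0.14 in lung macrophages. Higher levels in ACKR2-/- samples were found for 2 of 9 in monocytes, 10 of 10 in SPMs and 3 of 12 in lung macrophages. An unadjusted edgeR p under 0.05 was found for 4 of 9, 4 of 10 and 3 of 12, where 17%, 5.46% and 2.97% of all genes had one. The 4 in SPMs were Cxcl10 and the interferon-induced genes Ifit1, Ifit2 and Ifit3, at log2 differences of 3.27, 1.04, 2.51 and 1.65, each with an edgeR adjusted p of 0.788. In lung macrophages Ccl5 was at 70.4 to 151 CPM in WT and at 118 to 796 CPM in ACKR2-/- samples, and its call differed by tool, at an adjusted p of 1.00 with edgeR and 0.0239 with DESeq2. In SPMs it was at 29.0 to 104 and 30.6 to 179 CPM. Cxcl10, a chemokine of the interferon response, was at -1.01 (SE 0.38), 3.27 (SE 0.93) and -1.21 (SE 0.59) in the 3 cell types on the log2 scale and was not called in any. In SPMs 2 of the 4 ACKR2-/- samples, replicates 1 and 4, held 29.2 and 29.0 CPM of it while the others had 1.61 and 2.27 CPM, and WT samples had 0.479 to 2.68 CPM. Replicates 1 and 4 also held 380 and 707 CPM of Ly6c2, against 32.3 and 23.9 CPM in replicates 2 and 3 and 16.8 to 56.6 CPM in WT. Their NK cell markers summed to 35.6 and 74.4 CPM, against 13.3 and 12.3 CPM in replicates 2 and 3. The part of other cells in the target levels of SPMs was not tested. Tnf was not called in any cell type.

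The genotype differences of the neighbours and of the genes of these 3 lists were also compared between cell types in the fit of all 26 samples. Of 315 such comparisons 0 passed an edgeR adjusted p of 0.05, 24 had an unadjusted p under 0.05 and the smallest adjusted p was 0.129. Some of them could not pass, since the gene had no or almost no reads in both cell types, as Kcne4 and Hgs between monocytes and SPMs. In the same fit 0.253% of all genes passed between monocytes and SPMs, 0.152% between monocytes and lung macrophages and 0.0393% between lung macrophages and SPMs.

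**Figure D3:**
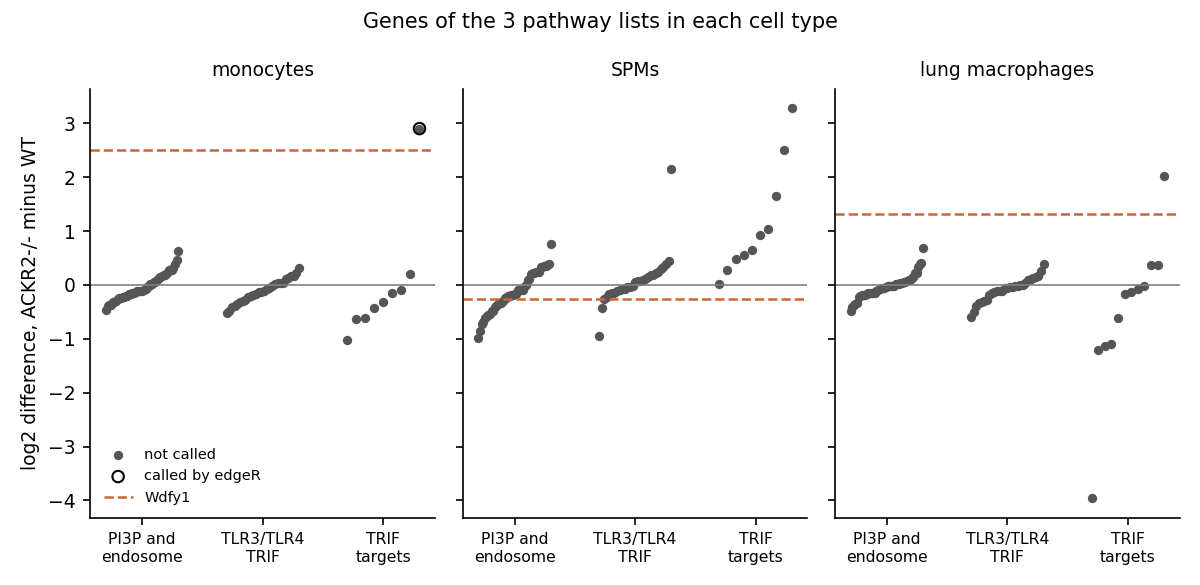
Log2 difference between ACKR2-/- and WT samples for each tested gene of the early endosome list, the TRIF list and the TRIF targets, ordered by size within each list and cell type; the dashed line marks Wdfy1 and the ring a gene called by edgeR. Early endosome genes lie between -0.99 and 0.77 in all 3 cell types, and the ring in monocytes is Ccl5 at 2.90.

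Genes with the pattern most like that of Wdfy1 across the 26 samples were sought among 17791 others, by Pearson correlation of log2(CPM + 0.5). By level the 5 highest were Ifngas1 (r = 0.81), Igkv14-126 (0.75), Klk1b27 (0.74), 5830468F06Rik (0.74) and Tcrg-C2 (0.74), where 95% of genes lay under 0.55. Ifngas1 is a long noncoding RNA beside the interferon gamma gene, Igkv14-126 an immunoglobulin light chain segment and Tcrg-C2 a constant segment of the gamma T cell receptor. Except for Igkv14-126, at 22.4 CPM in ACKR2-/- monocytes, these genes had group means of at most 2.30 CPM, so that few reads decide their order. With each cell type centred on its own mean, the 5 highest were Il2rb (0.84), Ctsw (0.83), Trbc1 (0.81), Lck (0.80) and Txk (0.80), where 95% of genes lay under 0.32. Il2rb is a receptor chain for interleukin-2 and interleukin-15, Ctsw a protease of cytotoxic lymphocytes, Trbc1 a T cell receptor constant segment, and Lck and Txk are kinases of T and NK cells. All points share the same libraries and genotypes, so these correlations describe the samples and carry no p.

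Markers of T and NK cells were also higher in ACKR2-/- than in WT monocytes, but not in the replicate order of Wdfy1. The summed level of 10 T cell markers (Cd3d, Cd3e, Cd3g, Trac, Trbc1, Trbc2, Cd4, Cd8a, Cd2 and Lck) was 4.06 to 5.97 CPM in WT monocytes and 74.1 to 136 CPM in ACKR2-/- monocytes, and 9 of the 10 were called higher by edgeR, against 0.913% of all genes. Cd3d alone was at 0.521 to 0.946 and 13.8 to 17.7 CPM. Of 7 NK cell markers 1 could be tested and was called, the sum was 0.0651 to 0.334 CPM in WT and 2.56 to 5.10 CPM in ACKR2-/- samples, and the defining marker Ncr1 was at 0 in every monocyte sample. In ACKR2-/- monocyte replicates 1 to 4 the T cell sum was 108, 74.1, 108 and 136 CPM. Wdfy1 in the same replicates was at 74.7, 66.1, 58.5 and 55.3 CPM. Among the markers of other cells, 2 more were called in monocytes. Of 5 tested dendritic cell markers Siglech, a gene of plasmacytoid dendritic cells, was called, at a log2 difference of 2.95 (SE 0.46, edgeR adjusted p = 0.00795), and the list summed to 54.5 to 77.8 CPM in WT and 64.3 to 169 CPM in ACKR2-/- monocytes. B cell markers summed to 641 to 738 and 731 to 1021 CPM, with 4 of 4 tested at higher levels and 0 called. Neutrophil markers summed to 37535 to 77548 CPM in WT and 14349 to 58605 CPM in ACKR2-/- monocytes, with 7 of 7 at lower levels and 0 called. Alox15, a lipoxygenase of the large peritoneal macrophage list, was called lower, at -2.80 (SE 0.52, edgeR adjusted p = 0.0254). The part of these cells in the level of Wdfy1 was not tested either.

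In SPMs the T cell sum was 262 to 511 CPM in WT and 232 to 416 CPM in ACKR2-/- samples, with 2 of 10 at higher levels. The NK sum was 2.68 to 13.6 and 12.3 to 74.4 CPM, with 6 of 6 tested at higher levels. The edgeR rule called 0 genes in either list, beside 0.0462% of all genes.

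In lung macrophages the T cell sum was 125 to 389 CPM in WT and 97.3 to 608 CPM in ACKR2-/- samples. The NK sum was 124 to 352 and 310 to 1920 CPM. In ACKR2-/- lung samples 9 of 10 T cell and 7 of 7 NK cell markers were at higher levels. The edgeR rule called 0 genes in either list, beside 0% of all 16824 genes tested. In ACKR2-/- lung replicates 1 to 5 the T cell sum was 608, 534, 342, 97.3 and 522 CPM. The NK sum was 1658, 1920, 779, 310 and 586 CPM. Wdfy1 in the same replicates was at 37.3, 29.3, 26.8, 30.2 and 26.1 CPM. The part of T and NK cell RNA in the level of Wdfy1 was not tested in any cell type.

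**Figure D4:**
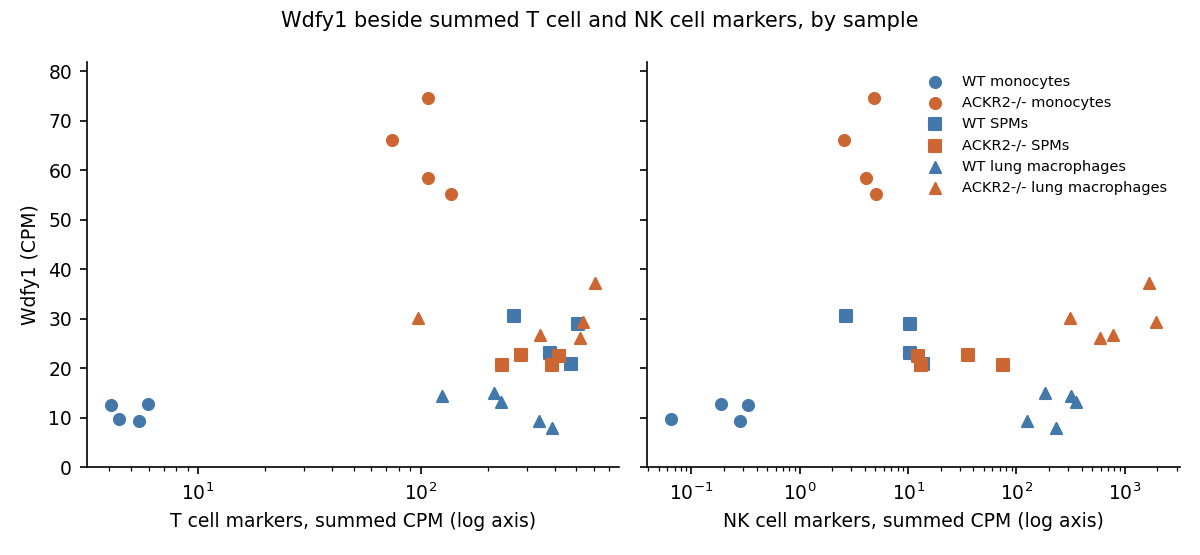
Wdfy1 in CPM against the summed CPM of 10 T cell markers (left) and of 7 NK cell markers (right, both on log axes) in each of the 26 samples, by cell type (shape) and genotype (colour). CPM are scaled within the table of each cell type, so levels are not compared between cell types. The T cell sums of WT and ACKR2-/- samples are 4.06 to 5.97 and 74.1 to 136 CPM in monocytes. They are 262 to 511 and 232 to 416 CPM in SPMs, and 125 to 389 and 97.3 to 608 CPM in lung macrophages.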

How the data were processed

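RNA-seq read counts per gene were deposited by the authors as raw, unscaled counts, with 1 table per cell type. The submitters' processing notes name HISAT2 2.0.5, featureCounts 1.5.0-p3, DESeq2 and the build mm10, which is GRCm38. Gene positions and lengths come from the deposited tables and transcripts from GENCODE M21. The lung table closes with summary lines of the counting tool (56.3% of its counts), which entered neither library sizes nor tests, and 0 columns were left unmapped. Whether the counting used strand is not stated in the sources used here, so overlapping genes may share reads.

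These deposited counts were then tested with edgeR 4.0.16 in R 4.3.3. Within each cell type genes were kept by filterByExpr (minimum count 10, minimum total 15), scaled by TMM and compared with the quasi-likelihood test, with Benjamini-Hochberg adjustment over all tested genes. A call needed an adjusted p under 0.05 together with a log2 difference over 0.5 in size. CPM values use the TMM-scaled library sizes. WT cell types were compared in 1 fit of 13 samples, with no p given for Wdfy1 although the plan had one, since the same WT samples entered its choice, and the genotype differences in 1 fit of 26, over identifiers present in all tables. The steps were tested on simulated data. Of 44 pairs of replicates 0 were identical, and the smallest chi-square per degree of freedom was 10.6. The floors of 3 counts cover counting error only, as reads carry no molecular identifiers. Each SE of a log2 difference comes from the quasi-likelihood fit and includes the spread between samples.

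Wdfy1, its neighbours and the gene lists were chosen with earlier results of these data known. Genes were named by a rule: Wdfy1 and its family, the 3 nearest tested protein-coding neighbours on each side, neighbours called or without overlap, called, abundant or central genes of the lists, and the 5 genes most like Wdfy1 by each measure. Alternatives were DESeq2 1.42.0, RLE scaling, no filter, a filter at 1 CPM, the robust fit, the replicate number as a block, the adjusted p alone and each sample left out. Added after seeing the data were leaving out both WT lung replicates 3 and 5, all alternatives for the TRIF targets and for the fit of 26 samples, and pseudocounts of 0.1 and 2 CPM.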

Additional observations from a re-analysis of the deposited data

Results flagged for a closer look

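Within groups of 4 or 5 samples, the highest or lowest value of the genes and marker sums named above was set against the others by Dixon's gap test at its 95% critical value. Of 196 groups tested 16 held such a value (8.16%), where chance gives about 1 in 20, and no group of Wdfy1 was among them.

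In WT SPMs 5 genes had a sample far above the rest: Wdfy2 at 17.6 CPM, Wdfy3 at 23.7 CPM, Wdfy4 at 39.7 CPM, Utp14b at 1.49 CPM and Ticam1 at 11.8 CPM, each in replicate 1. In ACKR2-/- SPMs the highest sample of Snx2 had 249 CPM, that of Il2rb 6.36 CPM, and the lowest of Lck 12.2 CPM.

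In WT lung macrophages the highest sample stood apart for Snx2 at 307 CPM, Cd14 at 2334 CPM, Tnf at 320.3 CPM and Igkv14-126 at 11.8 CPM, and the lowest for Il2rb at 20.6 CPM. In ACKR2-/- lung macrophages the lowest sample stood apart for Pik3c3 at 24.2 CPM and Snx2 at 78.8 CPM and the highest for Igkv14-126 at 3.87 CPM.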

How the results depend on the processing

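Of 391 values recomputed under an alternative, 380 kept their direction and their side of the threshold, or moved by less than the spread between replicates. Among the counts of called genes, the call of A630081D01Rik among the monocyte neighbours ranged from 0 to 1 with a replicate left out, and the early endosome list in monocytes from 0 to 1, where Mtmr1 was called without ACKR2-/- replicate 2. With no filter on low counts 1 TRIF target, Cxcl10, was called in SPMs, and with DESeq2 1 target, Ccl5, in lung macrophages. The WT difference between lung macrophages and monocytes ranged from -0.01 to 0.20 with a sample left out, and changed sign, at -0.011, without WT monocytes replicate 4. Of the 5 genes most like Wdfy1 by level, 3 were shared with a pseudocount of 2 CPM. The cause was not tested in any of these. With a replicate left out the log2 genotype difference of Wdfy1 was 2.43 to 2.59 in monocytes, -0.36 to -0.16 in SPMs and 1.22 to 1.43 in lung macrophages.

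Replicate numbers did not pair the samples throughout. Same-numbered samples correlated in their deviations from the group means at -0.13 to 0.35 in monocytes, -0.11 to 0.00 in SPMs and -0.10 to 0.68 in lung macrophages. Only monocyte replicate 2 (0.35) and lung replicate 1 (0.68) correlated best with the sample of their own number, so some pairing in these is not excluded. With the replicate block the log2 difference of Wdfy1 was 2.51, -0.24 and 1.35, and the counts of called neighbours and list genes were as without it. In WT samples it was 2.39 between SPMs and monocytes, 0.01 between lung macrophages and monocytes and -2.38 between lung macrophages and SPMs. Of the 53 neighbours 8 to 16 had enough reads for a test, and whether depth or a lack of expression left out the others was not tested.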
